A study of Mus musculus with 8 samples.

Results

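The 40 transcripts described here encode cytosolic chaperones, their cofactors, mitochondrial chaperones and the factors that switch heat shock genes on. They were taken by name from a fixed list, and all 40 had a line among the 16647 gene lines of the deposited table. By role they fall into HSP90 and its cochaperones (8 genes), HSP70, HSP110 and their cofactors (10), J proteins (7), small heat shock proteins (2), subunits of the CCT ring (7), mitochondrial chaperones (4) and heat shock factors (2).

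The cells are Tri-PyMT cells, a line of mouse mammary tumour cells in culture. Every group carries the same alleles: the MMTV-PyMT oncogene, a Cre recombinase under the Fsp1 promoter (Fsp1 is S100a4), and the Rosa26mT/mG reporter, which is red until Cre has acted in a cell and green in that cell and its descendants from then on. Cells were sorted by flow cytometry into a GFP+ and an RFP+ population and the transcripts of single cells were read by Drop-seq, which catches each cell with a barcoded bead in a droplet. There were 2 libraries of each population, each sequenced on 2 lanes whose counts stand together in the table, and n is the 2 libraries of a population throughout. The labels do not say whether the libraries were grown as separate cultures, so a p-value covers the spread of these libraries alone, and that spread may be technical. The sorted population records the past activity of the Fsp1 promoter in a cell, and the source is 1 line.

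After filtering, 7390 of 7400 cells were used. The GFP+ libraries held 1597 and 1798 cells with 2598187 and 2550319 counts, and the RFP+ libraries held 1998 and 1997 cells with 3081009 and 2988631 counts. Only 6 cell barcodes occurred in more than 1 library. The reporter lines of the table went against the labels: the line named for GFP had 99.7 and 104 CPM (counts per 1000000 counts of a library) in the libraries labelled GFP+, against 612 and 590 CPM in those labelled RFP+, and the line named for RFP had 2943 and 3053 CPM against 132 and 137 CPM. S100a4 itself had 1843 and 2114 CPM in the libraries labelled GFP+, against 648 and 676 CPM in those labelled RFP+. Every direction below is therefore one between libraries labelled GFP+ and libraries labelled RFP+. Markers of the labelled tumour epithelium were present in all libraries, with Epcam at 221 and 214 CPM in GFP+ and 372 and 389 CPM in RFP+ libraries. Of other cell types, the leukocyte gene Ptprc had 0 and 0 counts in GFP+ and 2 and 0 in RFP+ libraries, the endothelial gene Pecam1 had 0 and 1 against 0 and 0, and the erythroid gene Alas2 had none. The 6 of 10 fibroblast markers with a line summed to 54.7 and 62.7 CPM in GFP+ libraries and 11.7 and 7.03 CPM in RFP+ libraries, and the 8 of 15 immune markers with a line to 50.4 and 56.9 CPM against 107 and 105 CPM; their part in the results was not tested.

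Chaperones bind proteins that have not yet folded or have lost their fold, and most need a cycle of ATP binding and release that cofactors drive. J proteins hand clients to HSP70, the Stip1 protein passes some of them on to HSP90, and the CCT ring encloses actin and tubulin while they fold. Heat shock factor 1, encoded by Hsf1, binds heat shock elements, which are alternating GAA and TTC units in the promoters of many of these genes, and many tumour cells carry high levels of HSP90 and HSP70 proteins without any heat.

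RefSeq promoter sequences of the mouse build GRCm38.p6 were at hand for 32 of the 40 genes, and the 250 bases before each start were searched on both strands. A heat shock element of 3 units, written GAANNTTCNNGAA or TTCNNGAANNTTC, stood before a RefSeq start of Dnajb6, Hspd1 and Hspe1. That is 3 of 32 genes, against 0.514% of all 27025 genes with a promoter. Hspd1 and Hspe1 share the same bases, so these 3 genes are not independent. The shorter pair of units, GAANNTTC or TTCNNGAA, which every 3-unit element also contains, stood before 14 of the 32 genes, against 14.5% of all genes with a promoter. A match describes these letters only and was not tested for binding. The sites shown are those of the shared Hspd1 and Hspe1 region, whose 2 genes differed in direction between the populations, and of Dnajb6, followed by the promoters of Hspb1, whose test along the axis described below passed in the chosen setting but was lost in 6 of 9 alternatives, and of the inducible Hspa1b, which was nearly silent. Capitals mark the 3-unit elements in the first pair and the 2-unit pairs in the second.
Hspd1 and Hspe1, chr1:55088053-55088082, plus strand: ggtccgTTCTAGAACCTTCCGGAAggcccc
Dnajb6, chr5:29735843-29735872, plus strand: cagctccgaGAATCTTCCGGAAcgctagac
Hspb1, chr5:135887669-135887918, plus strand: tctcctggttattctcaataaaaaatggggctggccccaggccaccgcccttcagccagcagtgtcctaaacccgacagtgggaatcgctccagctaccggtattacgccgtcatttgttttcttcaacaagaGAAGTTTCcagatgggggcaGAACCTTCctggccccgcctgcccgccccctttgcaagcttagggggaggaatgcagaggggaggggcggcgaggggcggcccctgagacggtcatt
Hspa1b, chr17:34959239-34959488, minus strand: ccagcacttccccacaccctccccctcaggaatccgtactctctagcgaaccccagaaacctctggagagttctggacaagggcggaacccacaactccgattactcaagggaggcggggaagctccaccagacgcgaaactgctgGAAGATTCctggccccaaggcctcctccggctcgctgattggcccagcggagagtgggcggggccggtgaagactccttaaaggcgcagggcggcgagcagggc
The 18 capital bases of the first sequence are 2 overlapping elements. They begin 89 and 84 bases before the RefSeq start of Hspe1 on the plus strand. Read from the other strand, they begin 144 and 139 bases before a RefSeq start of Hspd1. The promoter of the other RefSeq start of Hspd1 held none. By the GENCODE annotation these bases lie inside Hspd1, which starts at 55088243 on the minus strand. The Dnajb6 element likewise lies inside Dnajb6, which starts at 29735688 on the plus strand.

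Chaperone transcripts made up 2.36% and 2.32% of all counts in the libraries labelled GFP+ and 2.13% and 2.12% in those labelled RFP+. Counts summed over the cells of each library were compared with edgeR's quasi-likelihood test on every gene that reached 10 CPM in 1 population and 20 counts over the libraries, with Benjamini-Hochberg adjustment and a threshold of 0.05. Of the 40 genes, 38 passed that filter, 19 were higher in GFP+ libraries, 4 were lower and 15 did not pass the test. Among all 7595 genes tested, 30.5% passed, with 15.7% higher and 14.9% lower. Abundant genes passed more often. In a fit of the 3496 genes that reached 50 CPM in 1 population, 839 were higher and 817 lower. Of the 32 chaperones in that fit, 16 were higher and 4 lower. The median log2 fold, GFP+ over RFP+, was 0.15 over the 38 genes and 0.0024 over all genes tested. Both GFP+ libraries lay above both RFP+ libraries for 26 of the 38 genes and below them for 5, against 34.3% and 30.7% of all genes tested. Since the cells of a library were summed, fewer cells with a transcript and less RNA per cell cannot be told apart in these folds.

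**Figure D1:**
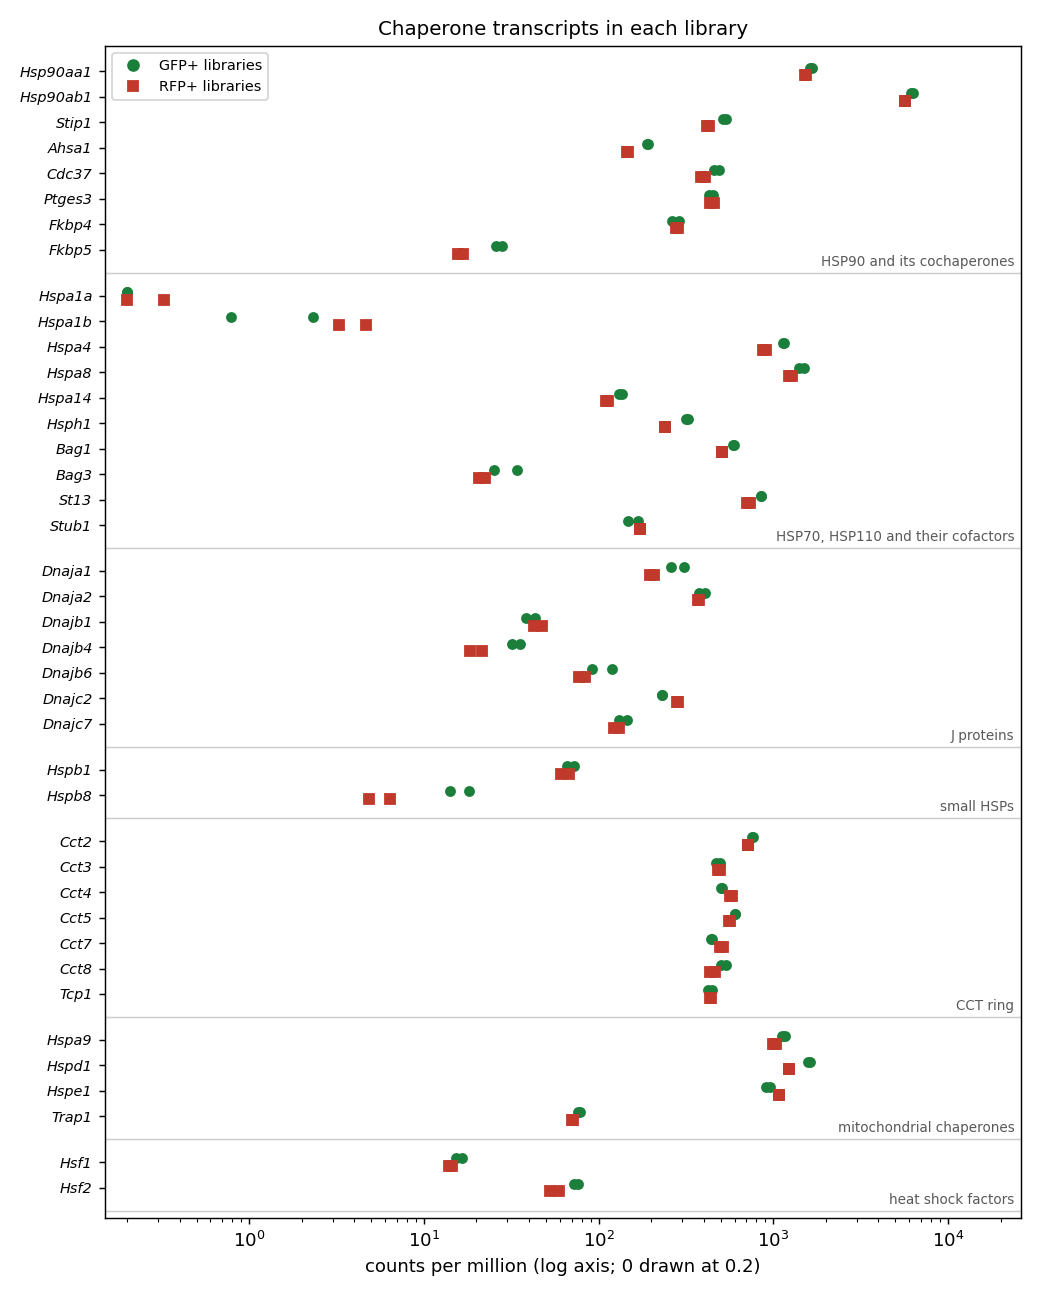
Level of each of the 40 transcripts in each library, in CPM on a log axis, by role. Green circles are the 2 libraries labelled GFP+ and red squares the 2 labelled RFP+; Hsp90ab1 stands highest at 5643 to 6316 CPM, and Hspa1a and Hspa1b lie at or near 0.

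HSP90 and its cochaperones gave 5 of 8 genes higher in GFP+ libraries and 0 lower. Hsp90ab1, the constitutive cytosolic HSP90, was the most abundant of the 40, with 6316 and 6140 CPM in GFP+ libraries, against 5708 and 5643 CPM in RFP+ libraries. The groups did not overlap, and the log2 fold was 0.12 ± 0.05 (SE; edgeR, adjusted p = 0.0402). Hsp90aa1, the inducible HSP90, had 1668 and 1625 CPM against 1526 and 1547 CPM, and its log2 fold of 0.09 ± 0.05 did not pass (edgeR, adjusted p = 0.18). The ratio of Hsp90ab1 to Hsp90aa1 counts was 3.79 and 3.78 in GFP+ libraries and 3.74 and 3.65 in RFP+ libraries. Divided by kilobases of the longest transcript (2520 and 3281 bases), their means were 2471 and 502 CPM in GFP+ libraries. In RFP+ libraries they were 2252 and 468 CPM. The middle transcripts have 572 and 711 bases. Whether counts rise with transcript length was not tested, so the divided values are not read as levels.

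Of the cochaperones, Stip1, Ahsa1, Cdc37 and Fkbp5 were higher in GFP+ libraries, and Ptges3 and Fkbp4 did not pass. Stip1, which links HSP70 to HSP90, had 514 and 539 CPM in GFP+ libraries and 417 and 429 CPM in RFP+ libraries. Ahsa1, the activator of the HSP90 ATPase, had 193 and 188 CPM against 145 and 148 CPM. Neither gene's groups overlapped, and their log2 folds were 0.30 ± 0.06 and 0.36 ± 0.08 (edgeR, adjusted p = 7.59e-05 and 0.000229). Fkbp5, a cochaperone that slows steroid receptors and is itself induced by glucocorticoids, had 25.8 and 27.8 CPM against 15.6 and 16.7 CPM, a log2 fold of 0.72 ± 0.20 (edgeR, adjusted p = 0.00436). Fkbp4, its counterpart that promotes receptor transport, had 289 and 262 CPM against 276 and 284 CPM, so that its groups overlapped. Ptges3, the p23 cochaperone, likewise overlapped at 453 and 431 CPM against 437 and 459 CPM, and neither passed the test (edgeR, adjusted p = 0.69 and 0.70).

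Cdc37, which brings protein kinases to HSP90, had 457 and 486 CPM in GFP+ libraries, against 405 and 387 CPM in RFP+ libraries (log2 fold 0.24 ± 0.06; edgeR, adjusted p = 0.00192). That fit used no length correction, and with the correction described below its fold depended on the transcript length used. With offsets from its longest transcript of 7851 bases the log2 fold was 0.01 (edgeR, adjusted p = 0.904). With those from its middle transcript of 1144 bases it was 0.43 (edgeR, adjusted p = 3.42e-08). Without GFP+ library 2 the log2 fold of Cdc37 was 0.18 and the adjusted p 0.0552. The call of Hsp90ab1 was lost without GFP+ library 1 (edgeR, adjusted p = 0.0795), without RFP+ library 1 (0.141) and without RFP+ library 2 (0.128), with log2 folds of 0.11 to 0.13.

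**Figure D2:**
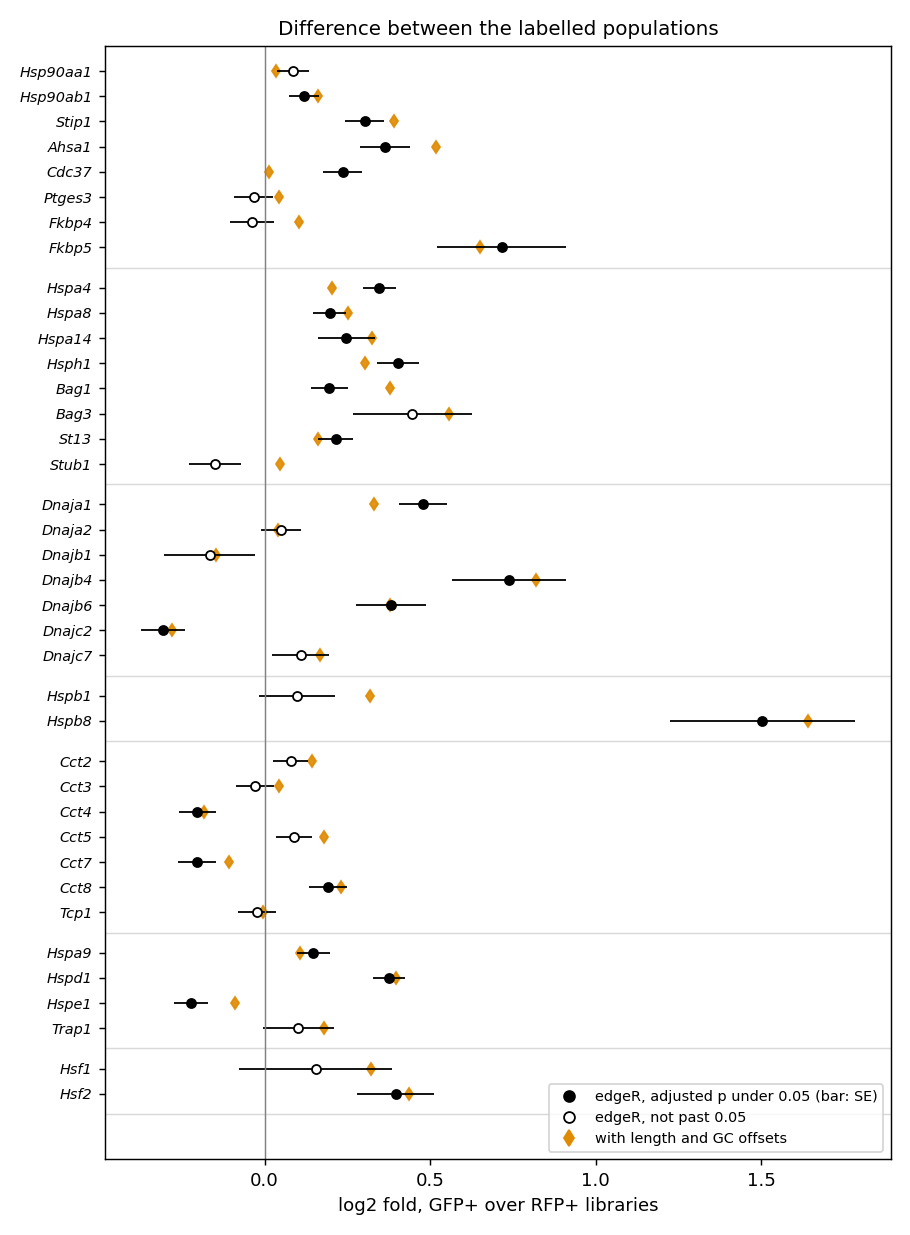
Log2 fold of the 38 tested transcripts, libraries labelled GFP+ over those labelled RFP+, with SE bars; filled circles passed an adjusted p of 0.05 in edgeR, and orange diamonds give the fold with offsets for transcript length and GC content. Most filled circles lie right of 0, Hspb8 farthest at 1.50, and Dnajc2, Cct4, Cct7 and Hspe1 lie left of it.

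HSP70, HSP110 and their cofactors gave 6 of 8 tested genes higher in GFP+ libraries and 0 lower. Hspa8, the constitutive HSP70, had 1504 and 1410 CPM in GFP+ libraries and 1285 and 1233 CPM in RFP+ libraries. Hspa4, an HSP110 that frees HSP70 of its ADP, had 1147 and 1142 CPM against 914 and 868 CPM. Hsph1, the heat-inducible HSP110, had 325 and 314 CPM against 240 and 239 CPM. All 3 were higher without overlap, with log2 folds of 0.20 ± 0.05, 0.35 ± 0.05 and 0.40 ± 0.06 (edgeR, adjusted p = 0.00235, 9.42e-07 and 4.11e-06). For Hspa8, 5 near copies in the genome match its end, so part of its reads may be placed elsewhere and its level is uncertain; Ahsa1 and Hspe1 have 1 such copy each. With offsets from the middle transcript length, Hspa4 had a log2 fold of 0.12 and an adjusted p of 0.0595.

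St13, Bag1 and Hspa14 were also higher in GFP+ libraries, and Bag3 and Stub1 did not pass. St13, the Hip protein that holds HSP70 in its ADP state, had 849 and 848 CPM in GFP+ libraries, against 710 and 738 CPM in RFP+ libraries (log2 fold 0.22 ± 0.05; edgeR, adjusted p = 0.00156). Bag1, a nucleotide exchange factor, had 587 and 593 CPM against 512 and 509 CPM (0.20 ± 0.06; edgeR, adjusted p = 0.00583). Hspa14, an HSP70 that sits at the ribosome, had 132 and 135 CPM against 113 and 110 CPM (0.25 ± 0.09; edgeR, adjusted p = 0.025). Each of these 3 had groups that did not overlap, but Hspa14 lost its call without any 1 of the 4 libraries, with adjusted p of 0.0624 and 0.158 without GFP+ libraries 1 and 2 and 0.0601 and 0.0851 without RFP+ libraries 1 and 2. Bag3, the exchange factor that pairs HSP70 with Hspb8, had 34.3 and 25.1 CPM against 20.8 and 22.4 CPM, and its log2 fold of 0.45 ± 0.18 did not pass (edgeR, adjusted p = 0.0556); without GFP+ library 2 its log2 fold was 0.64 and the adjusted p 0.0126. Stub1, the CHIP ubiquitin ligase that marks clients for the proteasome, had 147 and 167 CPM against 172 and 173 CPM and did not pass (edgeR, adjusted p = 0.152), although it did without GFP+ library 2 (log2 fold -0.26, adjusted p = 0.0488).

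The stress-inducible HSP70 pair was almost undetected. Hspa1a had 0 and 0 counts in GFP+ libraries and 1 and 0 counts in RFP+ libraries, and Hspa1b had 6 and 2 counts against 10 and 14. In all, 33 of 7390 cells held a count of either gene and none held more than 1. The pair is near-identical over much of its length, where reads may be dropped or split between the copies, although neither has a near copy over the last 300 bases. A count of 0 allows up to 1.15 and 1.18 CPM of Hspa1a in GFP+ libraries. Both genes were under the limit for testing and no fold is given.

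J proteins gave 3 of 7 genes higher in GFP+ libraries and 1 lower. Dnaja1, an HSP40 of the cytosol, had 308 and 259 CPM in GFP+ libraries, against 196 and 207 CPM in RFP+ libraries. Dnajb4, a heat-inducible HSP40, had 35.4 and 31.8 CPM against 21.4 and 18.4 CPM. Both were higher without overlap, with log2 folds of 0.48 ± 0.07 and 0.74 ± 0.17 (edgeR, adjusted p = 1.68e-06 and 0.00103). Dnajb6, a J protein that holds back aggregates of polyglutamine proteins and carries the 3-unit element shown above, had 119 and 92.1 CPM against 77.6 and 83.3 CPM (0.38 ± 0.11; edgeR, adjusted p = 0.00488). Its call rests on GFP+ library 1, without which the log2 fold was 0.19 and the adjusted p 0.304. Dnajc2, which works with Hspa14 at the ribosome, moved the other way with 231 and 229 CPM against 281 and 284 CPM (-0.31 ± 0.07; edgeR, adjusted p = 0.000343).

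The other 3 J proteins did not pass. Dnajb1, the main heat-inducible HSP40, had 43.1 and 38.4 CPM in GFP+ libraries, against 47.7 and 42.8 CPM in RFP+ libraries, and the groups overlapped. Dnaja2, an HSP40 that drives refolding, overlapped too, at 373 and 405 CPM against 368 and 377 CPM. Dnajc7, a J protein that binds both HSP70 and HSP90, had 130 and 145 CPM against 130 and 122 CPM. The adjusted p of the 3 genes was 0.384, 0.568 and 0.349 (edgeR). Exons of Dnaja1, Dnajb6 and Dnajc7 overlap those of genes on the other strand, and the use of strand in counting is not known here, which leaves their levels uncertain. The same holds for Stub1, Trap1 and Hspa1a of the other classes. Exons of Hspa14, Ahsa1, Hspa8, Stub1, Dnaja1 and Tcp1 overlap those of other genes on the same strand, so their levels are uncertain too.

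Of the small heat shock proteins, which hold unfolded proteins without ATP, Hspb8 was higher and Hspb1 did not pass. Hspb8, which acts with Bag3 in selective autophagy, had 18.1 and 14.1 CPM in GFP+ libraries, against 4.87 and 6.36 CPM in RFP+ libraries, from 47, 36, 15 and 19 counts. The groups did not overlap, and the fold of 2.84 was the highest of the 38 genes (log2 fold 1.50 ± 0.28, edgeR adjusted p = 5.18e-05). Its mean of 5.61 CPM in RFP+ libraries lay under the filter of 10 CPM. It was therefore tested only through its level in GFP+ libraries, a filter that favours such a fold, and its rank is not read. Hspb1, the HSP27 protein, had 72.7 and 65.9 CPM against 60.7 and 67.6 CPM, with overlapping groups (0.10 ± 0.11; edgeR, adjusted p = 0.541).

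Of 7 measured subunits of the CCT ring, in which each subunit has its own fixed place, 1 was higher, 2 were lower and 4 did not pass, against 15.7% higher and 14.9% lower of all genes tested. With offsets for length and GC content 3 were higher (Cct2, Cct5 and Cct8) and 1 lower (Cct4). Cct8 was higher, with 539 and 499 CPM in GFP+ libraries, against 463 and 437 CPM in RFP+ libraries (log2 fold 0.19 ± 0.06; edgeR, adjusted p = 0.0097). Cct4 was lower, with 500 and 506 CPM against 581 and 566 CPM (-0.20 ± 0.06; edgeR, adjusted p = 0.00452). Cct7 was lower as well, with 441 and 446 CPM against 498 and 514 CPM (-0.20 ± 0.06; edgeR, adjusted p = 0.00549). None of these 3 had overlapping groups.

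The 4 subunits that did not pass were Cct2 at 765 and 758 CPM in GFP+ libraries against 712 and 716 CPM in RFP+ libraries, Cct5 at 602 and 603 against 555 and 567 CPM, Cct3 at 469 and 497 against 493 and 484 CPM, and Tcp1 at 446 and 425 against 436 and 440 CPM. Cct2 and Cct5 did not overlap between the groups, and Cct3 and Tcp1 did. Summed over the 7 subunits the ring stood at 3761 and 3735 CPM in GFP+ libraries and 3739 and 3724 CPM in RFP+ libraries, and the groups overlapped. Cct8 lost its call without GFP+ library 1 (log2 fold 0.14, adjusted p = 0.137) or RFP+ library 2 (0.16, 0.0726), and Cct7 without RFP+ library 2 (-0.17, 0.0616). With cells thinned to 1000 counts neither passed (Cct8 0.17, adjusted p = 0.0857; Cct7 -0.19, 0.053). Exons of Cct7, Cct8 and Tcp1 overlap genes on the other strand.

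Of the 4 mitochondrial chaperones, 2 were higher, 1 was lower and 1 did not pass, and the neighbours Hspd1 and Hspe1 moved in opposite directions. Hspd1, the HSP60 ring of the mitochondrial matrix, had 1632 and 1590 CPM in GFP+ libraries, against 1237 and 1222 CPM in RFP+ libraries, a log2 fold of 0.38 ± 0.05 (edgeR, adjusted p = 8.71e-08). Hspe1, the HSP10 lid of that ring, had 908 and 958 CPM against 1075 and 1082 CPM, a log2 fold of -0.22 ± 0.05 (edgeR, adjusted p = 0.000925). The ratio of Hspd1 to Hspe1 counts was 1.80 and 1.66 in GFP+ libraries and 1.15 and 1.13 in RFP+ libraries, with no overlap. The 2 genes lie head to head on chromosome 1, with GENCODE start sites of Hspd1 on the minus strand at 55088243 and of Hspe1 on the plus strand at 55088132, 111 bases apart, so their first exons overlap and the strand of a read there cannot be told. Hspe1 has a transcript of 774 bases and Hspd1 one of 2423. With offsets for length and GC content the log2 fold of Hspe1 was -0.09 (adjusted p = 0.168) and that of Hspd1 0.40 (4.34e-10).

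**Figure D3:**
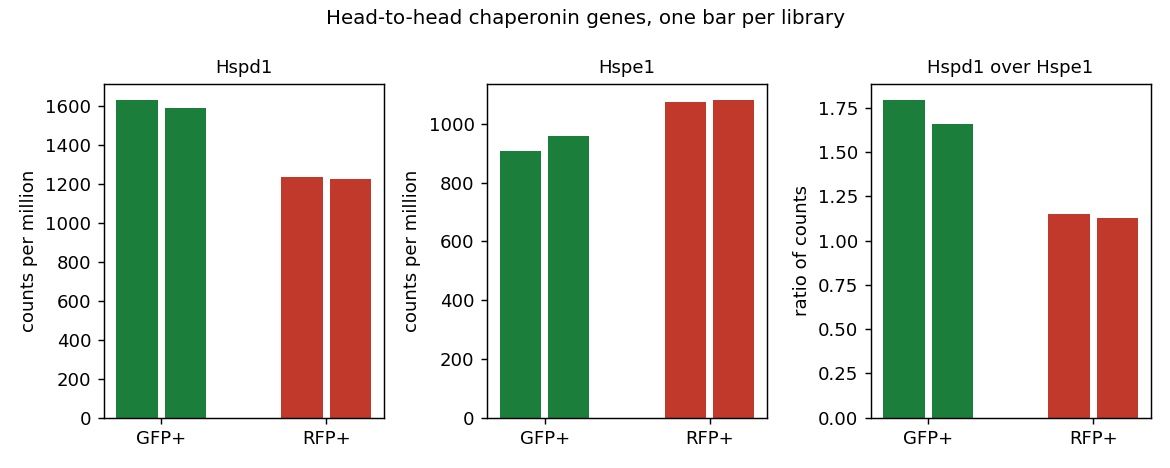
Hspd1 and Hspe1 in each library, in CPM, and the ratio of their counts; green bars are libraries labelled GFP+ and red bars those labelled RFP+, and all axes start at 0. Hspd1 is higher in both green bars, Hspe1 lower, and the ratio stands at 1.80 and 1.66 against 1.15 and 1.13.

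Hspa9, the mitochondrial HSP70 that pulls proteins into the matrix, had 1119 and 1164 CPM in GFP+ libraries, against 1041 and 1000 CPM in RFP+ libraries (log2 fold 0.15 ± 0.05; edgeR, adjusted p = 0.0244). Its groups did not overlap, but the call was lost without GFP+ library 2 (log2 fold 0.11, adjusted p = 0.185) and without RFP+ library 2 (0.13, 0.123). Trap1, the mitochondrial HSP90, had 77.7 and 76.1 CPM against 70.4 and 71.6 CPM and did not pass (edgeR, adjusted p = 0.504).

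Hsf1, the main activator of heat shock genes, had 16.6 and 15.3 CPM in GFP+ libraries, against 14.0 and 14.4 CPM in RFP+ libraries, and did not pass (log2 fold 0.15 ± 0.23; edgeR, adjusted p = 0.646). Hsf2, a heat shock factor that pairs with it, had 76.2 and 72.1 CPM against 59.1 and 52.5 CPM (0.40 ± 0.12; edgeR, adjusted p = 0.0076). The groups of Hsf2 did not overlap, and the call was lost without GFP+ library 1 (0.36, adjusted p = 0.0587) or without RFP+ library 2 (0.33, 0.0773). The activity of the factors is set largely after transcription, and these counts show only their transcripts.

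Folds followed transcript length: Spearman's rho between length and log2 fold was 0.36 over 7243 genes and 0.30 over the 38 members, given as a description. With edgeR offsets for length and GC content, 21 of the 38 were higher and 2 lower, against 12.8% and 12.1% of all genes tested, with a median log2 fold of 0.18. Hspb1 (0.32, adjusted p = 0.0344), Cct2 (0.14, 0.0278), Cct5 (0.18, 0.00769) and Bag3 (0.56, 0.0177) then passed the threshold, and Cdc37, Hspa9, Cct7 and Hspe1 did not. By DESeq2 in place of edgeR, 8 were higher and 2 lower: Hsp90ab1, Cdc37, Fkbp5, Hspa14, Bag1, Dnajb4, Dnajb6, Cct4, Cct7, Cct8, Hspa9 and Hsf2 did not pass, and Hspb8 was given no adjusted p.

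Other genes of protein quality control came from lists set beside these 40, and their counts stand against the same 15.7% higher and 14.9% lower of all genes tested. Of 44 other cytosolic chaperones and cofactors tested, 2 were higher and 8 lower, with a median log2 fold of -0.08. Clu, an extracellular chaperone, was lower, with 78.9 and 84.3 CPM against 164 and 146 CPM (log2 fold -0.94 ± 0.09; edgeR, adjusted p = 8.06e-11), and the prefoldin subunits Pfdn1 and Pfdn4, which deliver actin and tubulin to CCT, had -0.39 ± 0.07 each; with length and GC offsets Pfdn4 had -0.23. Of 15 other mitochondrial chaperones and proteases, 3 were higher and 5 lower, with a median of -0.18; the protease subunit Clpx had a log2 fold of 0.64 and the prohibitin Phb2 of -0.47 (-0.27 with the offsets). Chaperones of the endoplasmic reticulum were higher for 8 of 15 and lower for 1, with a median of 0.25, among them the collagen chaperone Serpinh1 at 0.62 and Pdia3 at 0.43, while Manf was lower at -0.33. Of 31 proteasome subunits 4 were higher and 10 lower, and of 15 immediate early genes that dissociation of cells can induce 2 were higher and 8 lower, with Junb at -0.74 and Fos at 0.49. Each median stands beside one of 0.0024 over all genes tested. With length and GC offsets, 5 of the other cytosolic chaperones were higher and 6 lower, 2 and 4 of the mitochondrial genes, 8 and 1 of the endoplasmic reticulum, 7 and 4 of the proteasome, and 2 and 4 of the immediate early genes, against 12.8% and 12.1% of all genes.

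At the level of single cells, each cell was thinned to 1000 counts, which left 1419 and 1233 cells of GFP+ and 1545 and 1423 cells of RFP+ libraries. No cell lacked all 40 transcripts, and the median cell held 23 and 23 chaperone counts per 1000 in GFP+ libraries and 21 and 21 in RFP+ libraries. Shares of cells with a count lay above in both GFP+ libraries for 25 of the 38 genes tested and below for 5, against 30.6% and 26.6% of all genes tested. Hsp90ab1 was found in 99.9% and 99.7% of GFP+ cells and 99.0% and 99.2% of RFP+ cells. Hspd1 was found in 79.0% (exact Clopper-Pearson 95% interval 76.8 to 81.1) and 76.0% (73.5 to 78.4) of GFP+ cells, against 68.6% (66.2 to 70.9) and 68.0% (65.5 to 70.4) of RFP+ cells, and without thinning in 88.2% and 82.7% against 77.5% and 76.3%. Hspe1 was found in 58.7% and 62.4% against 63.9% and 64.0%. Dnaja1 was found in 25.7% and 22.3% against 17.0% and 17.6%, and Hspb8 in 1.90% and 1.05% against 0.583% and 0.492%. Intervals cover counting error only, and no cell type in these libraries should lack chaperones, so the share that free RNA gives could not be read.

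**Figure D4:**
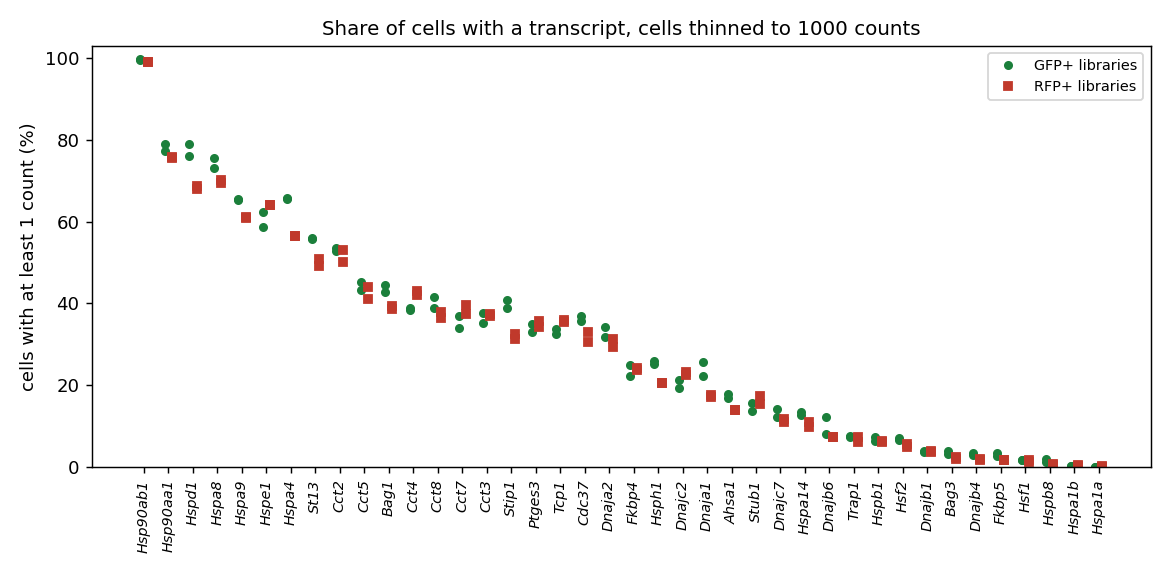
Share of cells with at least 1 count of each of the 40 transcripts after thinning every cell to 1000 counts, ordered by the mean share; green circles are libraries labelled GFP+ and red squares those labelled RFP+. Hsp90ab1 is found in 99.0% or more of the cells, and Hspa1a and Hspa1b in hardly any.

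The ratio of variance to mean between cells, which is 1 for pure counting error and is held near it where counts are low, had a median of 1.06 over the 37 genes with enough counts and ranged from 0.944 to 1.65 over genes and libraries. The highest value was that of Hspb1 in RFP+ library 2, and the same gene stood at 0.990 in GFP+ library 2. None of the 37 exceeded the 95th percentile of genes of like mean in all 4 libraries. For the summed counts of the 40 transcripts the ratio was 1.38 and 1.42 in GFP+ libraries and 1.47 and 1.47 in RFP+ libraries, above counting error in each. No genes of like sum were set beside it. The 4 to 9 genes with a mean like that of Hsp90ab1 had median ratios of 1.30 and 1.49 in GFP+ libraries. In RFP+ libraries these medians were 1.51 and 1.46. The ratio of the sum is therefore not read as particular to chaperones.

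Within libraries, cells were ordered from epithelial to mesenchymal by the counts of 31 epithelial and 30 mesenchymal genes, none of them a chaperone, and the most mesenchymal 20% of cells were compared with the most epithelial 20% of the same library. Among the 38 tested chaperones 0 were higher and 3 lower in the mesenchymal cells, against 0.832% higher and 0.925% lower (1.76% in all) of the 7456 genes tested; 12 of the 38 had an unadjusted p under 0.05, against 10.8% of all genes. In 4 of 4 libraries, 3 of the 38 were higher and 13 lower, against 5.89% and 8.49% of all genes, and the median log2 fold was -0.06 over the 38 and 0.0089 over all genes. Over all 38, 15 had a log2 fold above 0 on the axis and 23 below. Of the 19 genes higher in GFP+ libraries, 9 lay above 0 and 10 below, with a median of -0.0051. All 4 genes lower in GFP+ libraries lay below 0, with a median of -0.24, and 3 of them were lower in 4 of 4 libraries. The interaction of the axis with the population passed for 5 genes in all and for 0 of the 38; 460 of the 7456 genes and 2 of the 38 had an unadjusted p under 0.05.

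Hsp90aa1 was lower in the mesenchymal cells in 4 of 4 libraries, with 1495 and 1589 CPM in the mesenchymal cells of GFP+ libraries against 2053 and 1764 CPM in the epithelial cells, and 1324 and 1394 CPM against 1767 and 1743 CPM in RFP+ libraries (log2 fold -0.31 ± 0.06; edgeR, adjusted p = 0.000142). Cct5 was lower in 4 of 4 libraries, with 541 and 606 CPM against 792 and 630 CPM in GFP+ libraries and 498 and 433 CPM against 654 and 669 CPM in RFP+ libraries (-0.38 ± 0.09; edgeR, adjusted p = 0.00223). Hspb1 had the largest fall, with 45.9 and 73.2 CPM against 102 and 106 CPM in GFP+ libraries and 58.3 and 42.3 CPM against 68.0 and 120 CPM in RFP+ libraries (-0.82 ± 0.24; edgeR, adjusted p = 0.0365). In all 3 genes the mesenchymal cells were lower in each library. Taken over the libraries, the values of mesenchymal and epithelial cells did not overlap for Hsp90aa1 and Cct5, and those of Hspb1 did. None of the 3 calls held in each of the 9 alternatives. Hsp90aa1 lost its call with cells thinned to 1500 counts (log2 fold -0.25, adjusted p = 0.0954). The call of Cct5 was lost without GFP+ library 1 (adjusted p = 0.103) or RFP+ library 2 (0.0958), that of Hspb1 without GFP+ library 1 (0.242), GFP+ library 2 (0.055) or RFP+ library 2 (0.417), and also without the top 5% of cells by counts (0.0744), with wider classes (log2 fold -0.52, 0.149) and with another random draw of the thinning (-0.47, 0.462). The 7 CCT subunits had a median log2 fold of -0.21 on the axis, but only Cct5 passed; Cct7 was nearest after it, at -0.31 ± 0.10 (edgeR, adjusted p = 0.0765), and Tcp1 stood at 0.25 ± 0.10 (0.276).

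**Figure D5:**
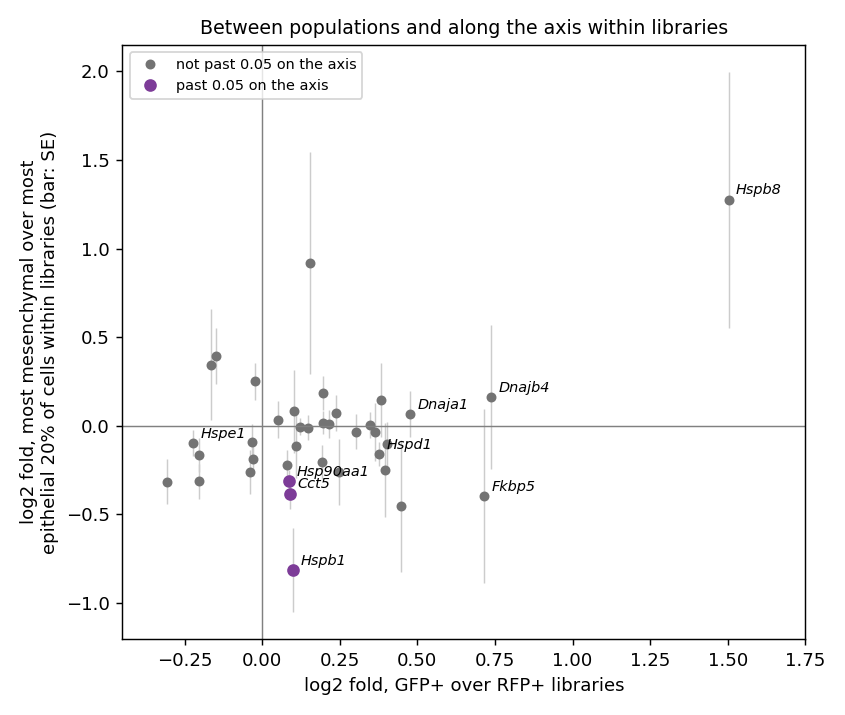
Each tested chaperone by its log2 fold between populations (GFP+ over RFP+ libraries, horizontal axis) and its log2 fold between the most mesenchymal and most epithelial 20% of cells within libraries (vertical axis, bars are SE). The 3 purple genes, Hsp90aa1, Cct5 and Hspb1, lie near 0 on the horizontal axis and below 0 on the vertical one, at -0.31, -0.38 and -0.82.

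Cells were also ordered by the summed counts of 49 G2/M genes, and the highest 20% were compared with the lowest 20% within each library. Of the 38 chaperones 0 passed by edgeR, against 2.19% of all 7482 genes tested (1.11% higher and 1.08% lower); 5 of the 38 had an unadjusted p under 0.05, against 11.4% of all genes. Hspb1 came nearest, at 28.3 and 65.0 CPM in high cells of GFP+ libraries against 81.3 and 93.5 CPM in low cells, and 68.0 and 35.2 CPM against 48.5 and 120 CPM in RFP+ libraries. It was lower in 3 of 4 libraries, with a log2 fold of -0.80 ± 0.25 that missed the threshold (edgeR, adjusted p = 0.0587); without RFP+ library 1 the adjusted p was 0.00135. Hspa9 was higher in 4 of 4 libraries at 0.18 ± 0.06 (adjusted p = 0.126) and Hspe1 lower in 4 of 4 at -0.18 ± 0.07 (0.154), both in edgeR and neither past the threshold.

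The planned comparison of cells with and without a count of Hspa1a or Hspa1b rested on 13 cells after thinning and its values are not read; edgeR called 0 of 7429 genes, with 994 at an unadjusted p under 0.05. Cells with a count of Hsph1 were compared with the other cells of the same library in its place, a choice made after seeing the data. None of the other 37 chaperones tested, and 0 of all 7572 genes (0%), passed, while 440 genes (5.81%) and 7 of the 37 had an unadjusted p under 0.05. Stip1 was nearest by p, with 592 and 557 CPM in Hsph1-positive cells of GFP+ libraries against 468 and 516 CPM in the other cells, and 486 and 432 CPM against 380 and 406 CPM in RFP+ libraries. It was higher in 4 of 4 libraries, at a log2 fold of 0.21 ± 0.07 (edgeR, adjusted p = 0.628).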

How the data were processed

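Drop-seq single-cell RNA of 2 GFP+ and 2 RFP+ libraries was used. The deposited table holds counts per gene and cell, whole numbers up to 342, on GRCm38, per the submitters' processing notes. The aligner, the counter and the use of strand and of molecular identifiers are unknown (not given in the sources used here). Both lanes of a library stand pooled in the deposited columns.

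Cells with 500 counts or more and less than 20% mitochondrially encoded counts were kept. No doublet caller was run and no doublet removed; an alternative leaves out the top 5% of cells by counts. Library sums were fitted with edgeR 4.0.16 (R 4.3.3; quasi-likelihood test, TMM factors, no covariate), adjusted over all genes tested. DESeq2 1.42.0, other filters and scalings, spline offsets for length and GC content (5 degrees of freedom) and leaving out each library were alternatives; a lone library is then assumed to vary like the others. An SE is the size of the log2 fold divided by the root of F. Splits within libraries used cells thinned to 1000 counts, the library as a block, and left out the genes of each score. Chi-square over genes was 1.41 (GFP+) and 1.36 (RFP+) per degree of freedom, so libraries of a population were kept apart. The edgeR fits between populations (plain, with offsets and with the replicate block) and the axis split were run on simulated data. No share of recovered genes was required of the axis split. DESeq2 and the other splits were not simulated. Near copies came from BLAST 2.17.0 (95% identity over 200 bases) and annotation from GENCODE M21.

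Members, lists and tests were chosen with earlier results of these data known. Values per library are given for genes past the threshold, genes of at least 200 CPM, Hspa1a, Hspa1b, Hsf1 and Hsf2, and genes past a test within libraries with a log2 fold of at least 0.5; other lists name genes among their 4 largest changes at 50 CPM or more. Bag3, Stub1, Dnajb1, Dnajc7 and Trap1 were added after their values were seen, so that every member has its values.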

Additional observations from a re-analysis of the deposited data

How the results depend on the processing

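Between populations, 9 of the 23 chaperones called kept their call in every alternative that gave an adjusted p (Stip1, Ahsa1, Hspa8, Hsph1, St13, Dnaja1, Dnajc2, Hspb8 and Hspd1). For Hspb8, neither the fit of genes at 50 CPM or more nor DESeq2 gave an adjusted p. Genes called numbered 1398 with cells thinned to 1000 counts and 721 by DESeq2, against 2319 in the report, and chaperones called 10 by DESeq2, against 23. Hspa14, Dnajb6 and Hspa9 lost their calls without a filter on low counts, and Hspa9 with cells of at least 1000 counts. Hspa9 reversed, to a log2 fold of -0.0040, with offsets from the middle transcript length, an alternative chosen after seeing the data. Library numbers were given here in the order of the labels, and for RFP+ they differ from the numbers in the labels. With the numbers given here, the correlation of same-numbered deviations was 0.038. Pairing by the numbers in the labels was not tested. With the numbers given here as the replicate block 1262 genes were higher and 1214 lower, with 20 and 4 chaperones. That block joins libraries whose labels carry different numbers. On the axis, 447 genes and 8 chaperones were called without thinning, and 84 to 98 genes and 1 to 3 chaperones when 1 library was left out, against 131 and 3. On the G2/M score, 476 genes were called without thinning, against 164. Chaperones called, against 0 of 38, were 2 of 37 at 1500 counts (193 of 6544 genes) and 3 of 38 without thinning (476 of 7555). They were 1 of 37 with another seed (194 of 7499) and 1 of 38 without the top 5% of cells (149 of 7381). With wider classes 1 of 38 was called (163 of 7575). When 1 library was left out, 0 to 1 chaperones and 112 to 138 genes were called. These counts are not read as a result about chaperones. For Hspa1-positive cells, 92 genes and 3 chaperones were called at 1500 counts and 93 and 2 with another seed, against 0. All of these were lower in the positive cells, where the median log2 fold over all genes tested was itself -1.44 and -2.56. With so few positive cells these calls are not read either. For Hsph1-positive cells, 1 gene was called at 1500 counts, 15 without thinning, 1 with another seed and 0 to 7 when 1 library was left out, against 0. The causes were not tested. Depth limits the rarest members most: Hspb8 rests on 15 to 47 counts a library and the Hspa1 pair on 33 in all.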
